A study of Homo sapiens with 5 samples.

Results

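Soluble guanylate cyclase and the enzymes that act on its product were followed in the human prostate cancer line C4-2B, a castration-resistant derivative of LNCaP. The genes were 6 of the 58812 genes counted: GUCY1A1, GUCY1A2 and GUCY1B1, which encode cyclase subunits, the phosphodiesterase gene PDE5A, and the cGMP-dependent kinase genes PRKG1 and PRKG2. The set was chosen by gene name with earlier results of these libraries known, so all its levels and fold changes count as used in the choice and are given below as a description. RNA sequencing covered 2 libraries of clone C4K13A and 1 library of clone C5K13A, both carrying a K13A change (lysine to alanine) in the homeobox factor HOXB13, and 2 libraries of the parental line. All libraries came from cells in the same medium, and no other agent is given. Each mutant group is a single clone, so a difference between a clone and the parental line cannot be told apart from a difference between clones as such. Whether replicate libraries came from separate cultures is not given, and p-values then measure only the spread between libraries, which may be technical.

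Soluble guanylate cyclase is a heterodimer of an alpha and a beta subunit whose haem binds nitric oxide, upon which the enzyme makes cGMP from GTP. The cGMP activates the kinases encoded by PRKG1 and PRKG2, and PDE5A ends the signal by hydrolysing cGMP. In the prostate the pathway is best known for relaxing stromal smooth muscle, where inhibitors of PDE5A act. GUCY1A1 has also been described as an androgen-induced gene in prostate cancer cells.

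Total counts ran from 43190276 to 48442286 in the K13A libraries and from 51978974 to 57282373 in the parental ones. Levels are in CPM, read counts scaled by library totals adjusted with TMM factors. HOXB13 itself had 345, 346 and 353 CPM in the K13A libraries and 337 and 449 CPM in the parental libraries, and gene counts cannot show its K13A change. KLK3, which encodes the luminal prostate marker PSA, had 2637, 2645 and 2295 CPM in the K13A libraries and 3094 and 1862 CPM in the parental libraries. Other luminal genes were less even: TMPRSS2 had 358, 139 and 107 CPM in K13A and 711 and 319 CPM in parental libraries, KLK2 had 439, 308 and 115 CPM against 509.8 and 298 CPM, and KRT8 had 462, 569.5 and 368 CPM against 304 and 317 CPM, and none of these passed the edgeR test in any comparison. The 7 smooth muscle markers summed to 68.9 to 117 CPM in K13A libraries and 47.7 to 57.8 CPM in parental libraries, most of it SMTN, while DES and CNN1 stayed at or below 0.0799 CPM in each library. Fibroblast markers summed to 5.11 to 6.22 CPM in K13A and 7.09 to 7.13 CPM in parental libraries, endothelial markers to 3.49 to 5.37 and 6.32 to 6.42 CPM, and leukocyte and platelet markers to 0.660 to 0.733 and 0.437 to 0.650 CPM. LUM, CD3E and PF4 had 0 counts throughout. Residual mitochondrial ribosomal RNA set the libraries apart: it was 63.3 CPM in C4K13A library 1, 363 CPM in C4K13A library 2, 671 CPM in C5K13A, 28.0 CPM in parental library 1 and 1764 CPM in parental library 2.

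The alpha subunit gene GUCY1A1 was the most abundant member, and its level was lower in every K13A library. GUCY1A1 (ENSG00000164116) lies on the plus strand of chromosome 4 at 155666711 to 155732349 (GRCh38, GENCODE v29). Its level was 56.9 and 45.7 CPM in the C4K13A libraries and 22.6 CPM in C5K13A, against 109 and 123 CPM in the parental libraries. The 3 groups did not overlap, with C5K13A below both C4K13A libraries and these below both parental libraries. This order was shared by GUCY1B1 and was seen in 3.76% of the 22743 genes in the 3-group fit. The fitted log2 fold change of GUCY1A1 was -1.18 ± 0.19 (SE) in C4K13A and -2.37 ± 0.26 in C5K13A, which correspond to levels 2.27-fold and 5.15-fold lower. Over all 3 K13A libraries it was -1.48 ± 0.33, or 2.79-fold lower, and the gap between the clones was part of that error. C5K13A was at -1.19 ± 0.25 relative to C4K13A. Read counts behind these values were 2849, 1967 and 955 in the K13A libraries and 6512 and 6259 in the parental libraries, so counting error was small beside the differences. In RNA from whole cultures, fewer expressing cells and less transcript per cell cannot be told apart.

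GUCY1B1, which encodes the haem-bearing beta subunit, was also lower in every K13A library. It lies 26.64 kb beyond the end of GUCY1A1 on the same strand (ENSG00000061918, chromosome 4, 155758992 to 155807591). GUCY1B1 had 12.1 and 12.3 CPM in the C4K13A libraries and 10.5 CPM in C5K13A, against 19.0 and 28.5 CPM in the parental libraries. The K13A libraries lay within a narrow range and the parental ones were spread more widely. Its fitted log2 fold change was -0.96 ± 0.24 in C4K13A and -1.17 ± 0.31 in C5K13A, or 1.95-fold and 2.26-fold lower. Over all K13A libraries it was -1.03 ± 0.21, and it was -1.29 without parental library 1 and -0.71 without parental library 2. Unlike for GUCY1A1, the value of C5K13A relative to C4K13A was within its error for GUCY1B1 (-0.21 ± 0.30).

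**Figure D1:**
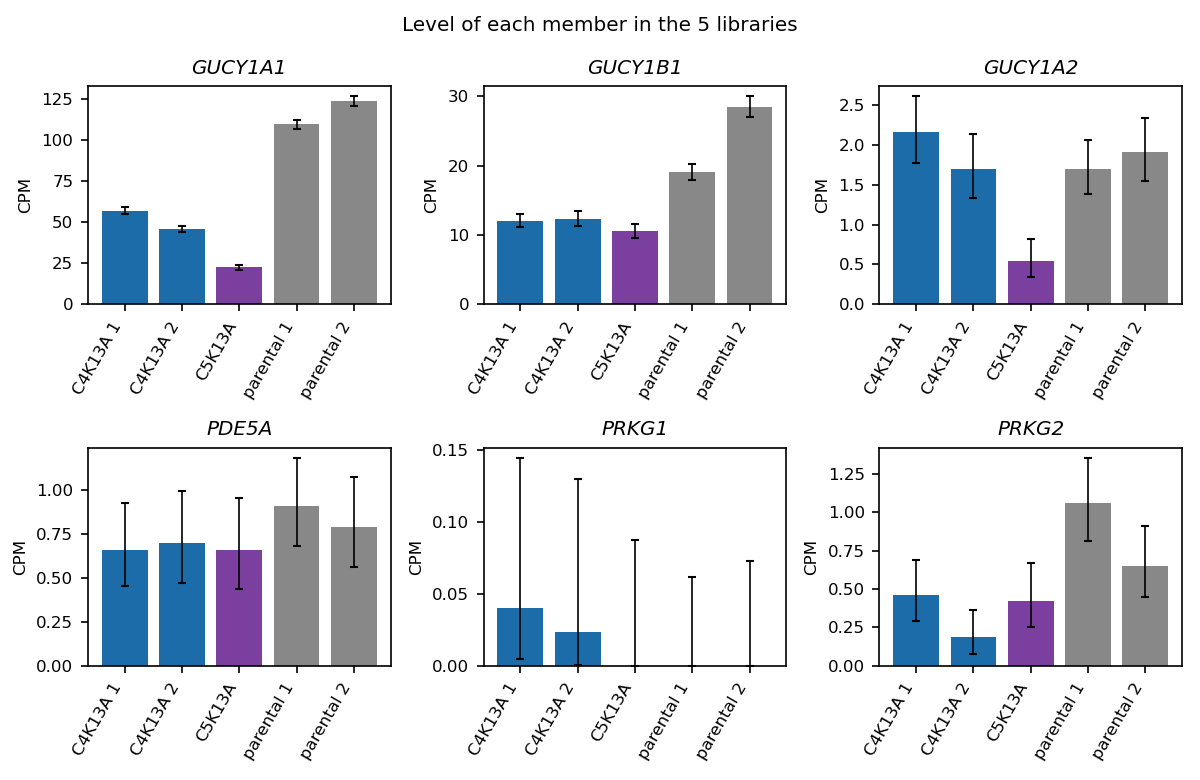
Level of each of the 6 genes in CPM (vertical axes, each with its own scale) in the 2 C4K13A libraries, the C5K13A library and the 2 parental libraries. Bars are single libraries and error bars are exact 95% Poisson intervals, which cover counting error only. GUCY1A1 runs from 22.6 CPM in C5K13A to 123 CPM in parental library 2, and PRKG1 has no bar in 3 libraries because it had 0 counts there.

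The promoter windows of the pair are shown because both genes were lower in both clones. They are taken from RefSeq on GRCh38.p14, each with 250 bases before and 50 after an annotated start on the plus strand. Capitals mark matches, on either strand, to GGGCGG (GC box). CAATAAA and TCGTAAA, spellings of HOXB13-type sites, were searched on both strands as well. The windows are chr4:155666598-155666897 and chr4:155667412-155667711 for the starts of GUCY1A1, and chr4:155758771-155759070 for GUCY1B1.
GUCY1A1 upstream start: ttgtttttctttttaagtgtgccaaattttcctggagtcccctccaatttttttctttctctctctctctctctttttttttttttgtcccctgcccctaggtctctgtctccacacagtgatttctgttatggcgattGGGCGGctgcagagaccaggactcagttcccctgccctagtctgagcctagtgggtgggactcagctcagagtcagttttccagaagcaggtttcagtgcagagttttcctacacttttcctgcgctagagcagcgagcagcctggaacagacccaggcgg
GUCY1A1 downstream start: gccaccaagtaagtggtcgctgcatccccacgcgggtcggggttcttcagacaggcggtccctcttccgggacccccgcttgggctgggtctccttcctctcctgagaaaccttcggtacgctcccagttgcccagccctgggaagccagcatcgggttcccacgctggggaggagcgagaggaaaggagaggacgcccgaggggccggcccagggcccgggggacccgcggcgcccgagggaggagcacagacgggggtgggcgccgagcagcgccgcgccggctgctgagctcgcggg
GUCY1B1: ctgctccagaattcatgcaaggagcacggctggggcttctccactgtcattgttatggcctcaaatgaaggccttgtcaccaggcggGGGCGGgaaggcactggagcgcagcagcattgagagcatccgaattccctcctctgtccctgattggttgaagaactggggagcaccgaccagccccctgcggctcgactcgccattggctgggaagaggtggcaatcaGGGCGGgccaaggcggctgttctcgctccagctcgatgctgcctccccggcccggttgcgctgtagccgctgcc

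In these windows the upstream GUCY1A1 start had 1 GC box and the downstream one had none of the 3 motifs. The GUCY1B1 window had 2 GC boxes. GC boxes occur in 45.0% of the 35116 RefSeq windows of this length. CAATAAA, held by 4% of windows, and TCGTAAA, held by 0.541%, had no match in these 3 windows. The GUCY1A1 windows differ in composition, with 49.7% GC and 5 CpG dinucleotides upstream and 72.0% GC and 29 CpG dinucleotides downstream. The GUCY1B1 window has 63.0% GC and 17 CpG dinucleotides, beside medians of 58.7% and 14 over all windows. A match here describes letters, not binding, and the counts do not show which GUCY1A1 start was used.

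GUCY1A2, which encodes the alternative alpha subunit and lies on chromosome 11 (106674012 to 107018524, minus strand; ENSG00000152402), differed from the pair in being low in C5K13A alone. It had 2.16 and 1.70 CPM in the C4K13A libraries and 0.544 CPM in C5K13A, against 1.70 and 1.91 CPM in the parental libraries. The C4K13A and parental values overlapped, and C5K13A was lower than any other library. C5K13A had 23 counts, with an exact 95% interval of 14.6 to 34.5, and the other libraries had 73 to 108. The fitted log2 fold change was 0.10 ± 0.37 in C4K13A, -1.73 ± 0.52 in C5K13A, and -1.82 ± 0.52 between C5K13A and C4K13A.

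Set against each other per kilobase of annotated exon, the subunit transcripts were in a different balance in the libraries. GUCY1A1 exceeded GUCY1B1 by a ratio of 3.05 and 2.40 in the C4K13A libraries and 1.39 in C5K13A, against 3.71 and 2.80 in the parental libraries. The C4K13A and parental ranges overlapped, and C5K13A had the lowest ratio. GUCY1A2 supplied 1.32% and 1.29% of the summed alpha level per kilobase in C4K13A and 0.842% in C5K13A, against 0.544% and 0.543% in the parental libraries. This share rises when GUCY1A1 is lower, so it is not a result apart from the GUCY1A1 level. The log2 fold change of GUCY1A2 itself was 0.10 in C4K13A and -1.73 in C5K13A. In each library, then, nearly all alpha subunit transcript was GUCY1A1, and GUCY1B1 was below the summed alpha level. These ratios use the union of all GENCODE v29 exons as gene length (5766 bases for GUCY1A1, 3724 for GUCY1B1 and 16361 for GUCY1A2), which may not match the isoforms present.

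**Figure D2:**
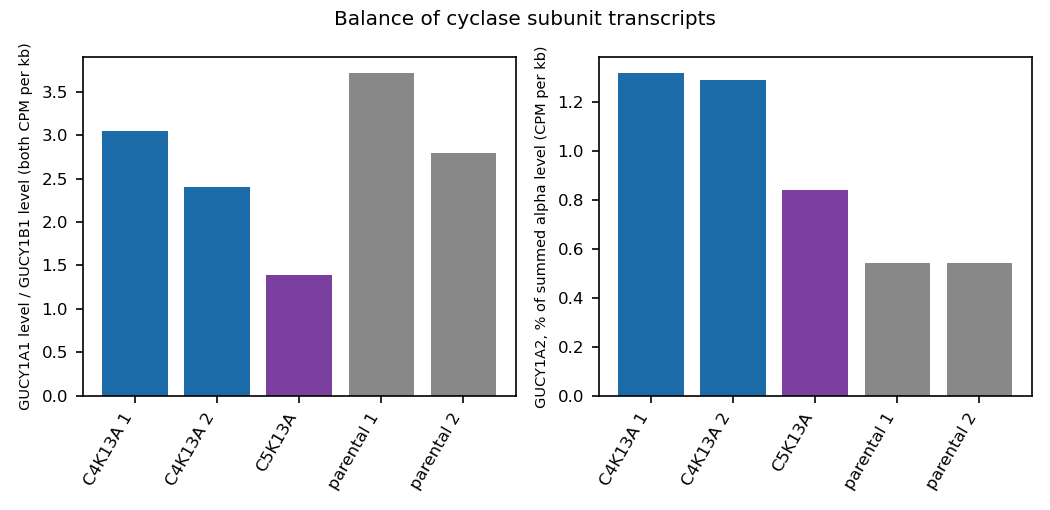
Left, ratio of the GUCY1A1 to the GUCY1B1 level, both in CPM per kilobase of exon; right, GUCY1A2 as a percentage of the summed GUCY1A1 and GUCY1A2 level in the same unit. Each bar is 1 library, with no error bar. The ratio is lowest in C5K13A (1.39) and the GUCY1A2 share is higher in the 3 K13A libraries (0.842% to 1.32%) than in the parental ones (0.543% and 0.544%). The share rises when GUCY1A1 is lower.

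PDE5A, the gene of the cGMP-hydrolysing enzyme, was expressed at a low level. PDE5A (ENSG00000138735, chromosome 4, 119494395 to 119628991, minus strand) had 0.660 and 0.697 CPM in the C4K13A libraries and 0.662 CPM in C5K13A, against 0.908 and 0.788 CPM in the parental libraries. All K13A values lay below both parental values, but each library had only 28 to 54 counts and the 95% counting intervals overlapped in each case. The fitted log2 fold change was -0.32 ± 0.47 in C4K13A and -0.36 ± 0.59 in C5K13A. The transcribed pseudogene SEPTIN7P14 overlaps PDE5A on the opposite strand, shares 542 exonic bases with it and had 111 to 207 counts in K13A and 208 to 214 in parental libraries. The strand setting of the counting is not given, so reads of the 2 genes cannot be told apart and PDE5A values are uncertain.

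Of the kinase genes, PRKG1 was not detected in most libraries and PRKG2 was low. PRKG1 (ENSG00000185532, chromosome 10, 50990891 to 52298350, plus strand) encodes the kinase of smooth muscle and platelets. It had 2 and 1 counts in the C4K13A libraries and 0 in C5K13A, against 0 in both parental libraries. A count of 0 allows up to 0.0709 CPM in C5K13A and up to 0.0504 and 0.0591 CPM in the parental libraries (3 counts), and no fold change is given. The antisense gene PRKG1-AS1 shares 169 exonic bases with it and had 2 counts in C4K13A library 1 and 0 elsewhere, so the source of these few reads is uncertain. PRKG2 (ENSG00000138669, chromosome 4, 81087370 to 81215117, minus strand) encodes the membrane-bound kinase known from intestine and cartilage. It had 0.460 and 0.186 CPM in the C4K13A libraries and 0.426 CPM in C5K13A, against 1.06 and 0.650 CPM in the parental libraries. The groups did not overlap, though counts were 8 to 23 in K13A and 33 and 63 in parental libraries. The 95% counting intervals of C4K13A library 1 (0.291 to 0.690 CPM) and C5K13A (0.252 to 0.673 CPM) overlapped that of parental library 2 (0.448 to 0.913 CPM). The interval of C4K13A library 2 did not, and no K13A interval overlapped that of parental library 1. Its fitted log2 fold change was -1.39 ± 0.64 in C4K13A and -1.0 ± 0.80 in C5K13A. The C4K13A value ran from -2.18 without C4K13A library 1 to -0.89 without C4K13A library 2.

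Within the set, 4 of the 5 genes that passed the filter on low counts were lower in each K13A library than in each parental library, an arrangement found in 14.7% of all 20649 genes tested. The exception was GUCY1A2, and PRKG1 did not pass. Medians of the 5 fitted log2 fold changes were -1.03 over all K13A libraries, -0.96 in C4K13A and -1.17 in C5K13A, beside medians over all genes of -0.00, -0.01 and -0.03. By edgeR at an adjusted p of 0.05, 0 of the 5 were past the threshold over all K13A libraries (0.203% of all genes). GUCY1A1 alone was past it in C4K13A (0.699% of all genes) and in C5K13A (0.0484%), and 0 were between the clones (0.066%). These calls come from the fit over all genes and are a description: nothing is read from them, since the genes were chosen with their values known. Both clone comparisons share the parental libraries. The tallies that follow are a description too. Over all K13A libraries GUCY1A1 and GUCY1B1 were each past the threshold in 2 of 10 alternatives. In C4K13A, GUCY1A1 was past the threshold in 7 of 10 alternatives, not without C4K13A library 1, C4K13A library 2 or C5K13A, and GUCY1B1 in 5 of 10.

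**Figure D3:**
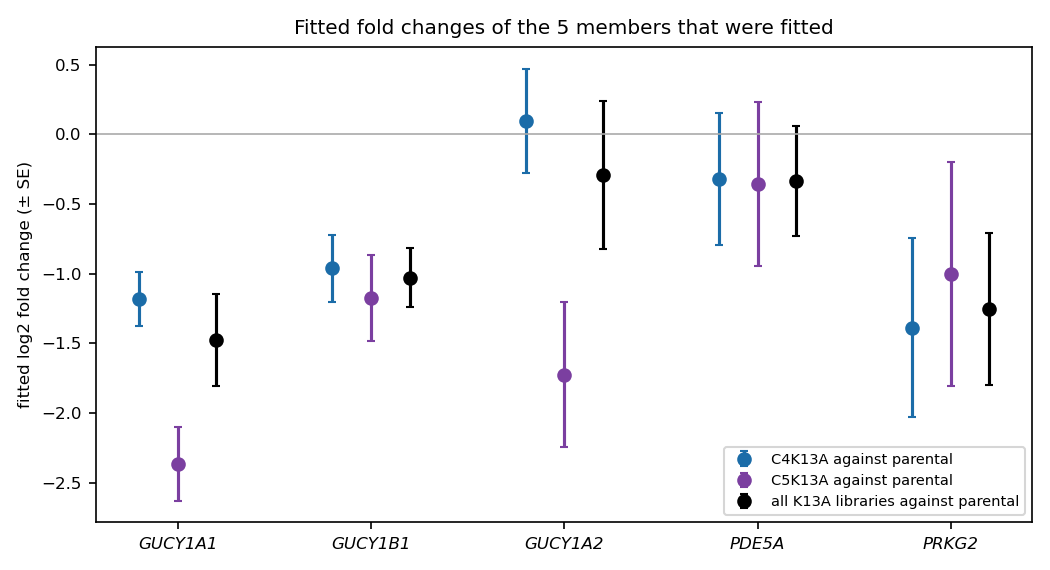
Fitted log2 fold change with its standard error (vertical axis) for the 5 genes that passed the filter, in C4K13A against parental, C5K13A against parental and all K13A libraries against parental. GUCY1A1 and GUCY1B1 lie below 0 in all 3, and GUCY1A2 lies near 0 in C4K13A (0.10) and at -1.73 in C5K13A.

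Because residual ribosomal RNA differed between libraries, the pair was also compared among libraries on the same side of 200 CPM. The sides did not hold it level. On the high side it was 363 CPM in C4K13A library 2 and 671 CPM in C5K13A, against 1764 CPM in parental library 2. Each value sets a single library against a single library. On the low side, C4K13A library 1 was at -0.94 for GUCY1A1 and -0.66 for GUCY1B1 relative to parental library 1 on the log2 CPM scale. On the high side, C4K13A library 2 was at -1.43 and -1.21 and C5K13A at -2.45 and -1.43 relative to parental library 2. PRKG2 was at -1.14 on the low side, and at -1.61 in C4K13A library 2 and -0.57 in C5K13A on the high side. PDE5A had -0.44, -0.17 and -0.24 in the same order. For these 4 genes the sign on each side follows from the separation of the groups already given, and only the sizes add to it. GUCY1A2 in C4K13A had 0.34 on the low side and -0.17 on the high side.

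Genes next to the cyclase pair were also lower in the K13A libraries. Within 500 kb of the pair 5 other protein-coding genes are annotated, and 2 of them averaged at least 1 CPM. MAP9, a microtubule-associated protein gene upstream of GUCY1A1, had 24.7 and 21.0 CPM in the C4K13A libraries and 17.6 CPM in C5K13A, against 36.3 and 32.4 CPM in parental libraries (log2 fold change over all K13A libraries -0.70 ± 0.19, edgeR adjusted p = 0.239). CTSO, a cathepsin gene downstream of GUCY1B1, had 3.70 and 4.39 CPM in the C4K13A libraries and 5.82 CPM in C5K13A, against 9.80 and 7.23 CPM in parental libraries (-0.88 ± 0.28, adjusted p = 0.308). For both genes no K13A library reached a parental one, an arrangement found in 14.7% of all genes tested. Neither passed the test in either clone. NPY2R, ASIC5 and TDO2 had at most 4 counts in any library. Of 23 other protein-coding genes tested within 5 Mb, MAP9 and CTSO among them, 15 had negative log2 fold changes over all K13A libraries, with a median of -0.21 beside 0.02 for all protein-coding genes, and 0 were past the threshold. In C4K13A 1 of 24 was past it, beside 0.699% of all genes. This was the transmembrane protein gene TMEM154, named after its values were seen. It had 1.72 and 2.53 CPM in C4K13A libraries and 5.51 CPM in C5K13A, against 7.31 and 11.7 CPM in parental libraries (C4K13A against parental -2.16 ± 0.35, edgeR adjusted p = 0.0421). Whether the lower level of the pair is shared with its region was not tested.

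**Figure D4:**
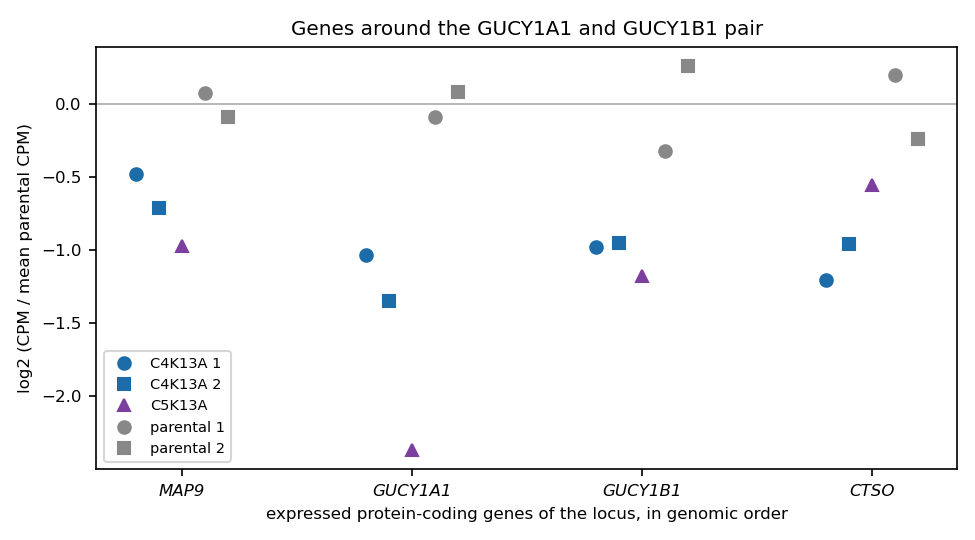
Level of each expressed protein-coding gene within 500 kb of the pair, in genomic order, as log2 of its CPM over the mean parental CPM (vertical axis). Points are single libraries. All K13A points lie below all parental points for MAP9, GUCY1A1, GUCY1B1 and CTSO, and the lowest is GUCY1A1 in C5K13A.

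Values in the rest of the nitric oxide and cGMP pathway were split about evenly in direction. Of 66 other pathway genes listed, 41 passed the filter for all K13A libraries and 48 for the clone comparisons. Over all K13A libraries 0 of 41 passed the edgeR test at an adjusted p of 0.05. An unadjusted p under 0.05 was found for 12 (29.3%, against 11.0% of all genes). With DESeq2 3 of 41 passed, beside 555 of all 20649 genes. The split was 21 negative and 20 positive values, and the median log2 fold change was -0.00, as it was over all genes. In C4K13A 2 of 48 fell (4.17%, against 0.602% of all genes that fell) and 0 rose. An unadjusted edgeR p under 0.05 was found there for 13 (27.1%, against 12.2% of all genes). With DESeq2 7 passed in C4K13A, beside 745 of all 22743 genes. In C5K13A 0 of 48 passed the edgeR test, with 6 at an unadjusted p under 0.05 (12.5%, against 6.45% of all genes). Medians were 0.01 in C4K13A and 0.02 in C5K13A, and 0.01 and 0.02 with genes at 0 counts in one group set to their bound.

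The pathway genes that fell in C4K13A were ASS1 and PDE10A, in a list that held no member of the set. ASS1, argininosuccinate synthase, which helps regenerate the arginine that nitric oxide synthases use, had 12.9 and 18.6 CPM in the C4K13A libraries and 47.3 CPM in C5K13A, against 47.3 and 65.7 CPM in parental libraries. It fell in C4K13A with a log2 fold change of -1.84 ± 0.25 (edgeR adjusted p = 0.0245), and the C5K13A value was -0.26 ± 0.30 (adjusted p = 0.897). PDE10A, a phosphodiesterase of both cAMP and cGMP, had 8.83 and 7.04 CPM in the C4K13A libraries and 28.0 CPM in C5K13A, against 28.4 and 30.1 CPM in parental libraries. It fell in C4K13A by 1.88 on the log2 scale (SE 0.21, adjusted p = 0.0114), and C5K13A lay just below the parental libraries (-0.06 ± 0.25, adjusted p = 0.970). Both falls passed in each of 10 alternatives. The difference between the clones did not pass for ASS1 (1.59 ± 0.29, adjusted p = 0.186, range 1.39e-07 to 0.380 over 8 alternatives) or PDE10A (1.82 ± 0.24, adjusted p = 0.0599, range 2.69e-08 to 0.0798), and passed in 6 of those 8 alternatives for each.

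By role, the transcripts for making and sensing nitric oxide were unevenly present. Among 12 tested genes of nitric oxide synthesis and its cofactors, 5 had negative and 7 positive values over all K13A libraries. NOS3, the endothelial synthase, had 7.09, 9.49 and 14.2 CPM in the K13A libraries and 50.9 and 4.93 CPM in the parental libraries, so that the parental values lay on both sides of the K13A ones. NOS1 and NOS2, the neuronal and inducible synthases, had at most 0.139 CPM in any library and were not tested. DDAH1, which degrades an inhibitor of the synthases, had 124 and 103 CPM in the C4K13A libraries and 83.9 CPM in C5K13A, against 97.8 and 93.2 CPM in parental libraries. NOSIP, a synthase-interacting protein gene, had 52.2, 51.1 and 56.6 CPM in K13A libraries and 44.9 and 47.7 CPM in parental libraries. The chaperone gene HSP90AA1, whose product assists haem loading of the beta subunit, had 1489, 1699 and 1708 CPM in K13A libraries and 1186 and 1329 CPM in parental libraries. HSP90AB1 had 1246, 1221 and 1493 CPM in K13A and 1603 and 1471 CPM in parental libraries, so that the groups overlapped. Genes of other guanylate cyclases were low: the natriuretic peptide receptor gene NPR2 had 4.23 CPM in C4K13A library 2 and at most 0.336 CPM in any other library, and NPR1, GUCY2C, GUCY2D and GUCY2F had at most 0.335 CPM. NPR3, the clearance receptor for natriuretic peptides, had 18.8, 50.2 and 15.2 CPM in K13A libraries and 7.01 and 14.4 CPM in parental libraries. NPPC, which encodes C-type natriuretic peptide, had 15.9, 7.63 and 10.3 CPM in K13A and 19.9 and 18.1 CPM in parental libraries. None of these passed the test.

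Of the other phosphodiesterases, 6 of 8 tested had negative values over all K13A libraries, with a median of -0.49. PDE9A, a cGMP-specific enzyme gene, had 22.3, 22.7 and 22.6 CPM in K13A libraries and 27.7 and 35.4 CPM in parental libraries. PDE3B, whose product is inhibited by cGMP, had 53.6, 41.1 and 36.8 CPM in K13A libraries and 27.8 and 35.3 CPM in parental libraries. Per kilobase of exon these were well above PDE5A, at 4.96 for PDE9A and 3.32 for PDE3B, against 0.0760 for PDE5A as means over the 5 libraries. Both cyclic nucleotide exporter genes had negative values. ABCC4 had 190, 113 and 73.7 CPM in K13A and 277 and 165 CPM in parental libraries, with overlap, and ABCC5 had 20.7, 17.0 and 16.2 CPM in K13A and 32.0 and 26.6 CPM in parental libraries, without overlap. Of the cGMP-gated channel genes CNGA1 had 0.686 to 1.28 CPM in K13A and 1.01 to 1.14 CPM in parental libraries, and CNGB3 was at or below 0.200 CPM in each library. Among kinase substrates and partners, RHOA had 250.4, 299.9 and 352 CPM in K13A and 268 and 334 CPM in parental libraries, and the potassium channel gene KCNMA1 had 115, 230 and 221 CPM in K13A and 89.7 and 143 CPM in parental libraries. Groups overlapped for both. In all, 8 of the 41 tested genes (19.5%) were lower in each K13A library than in each parental one, against 14.7% of all genes, and 9 (22.0%) were higher in each, against 13.8%.

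**Figure D5:**
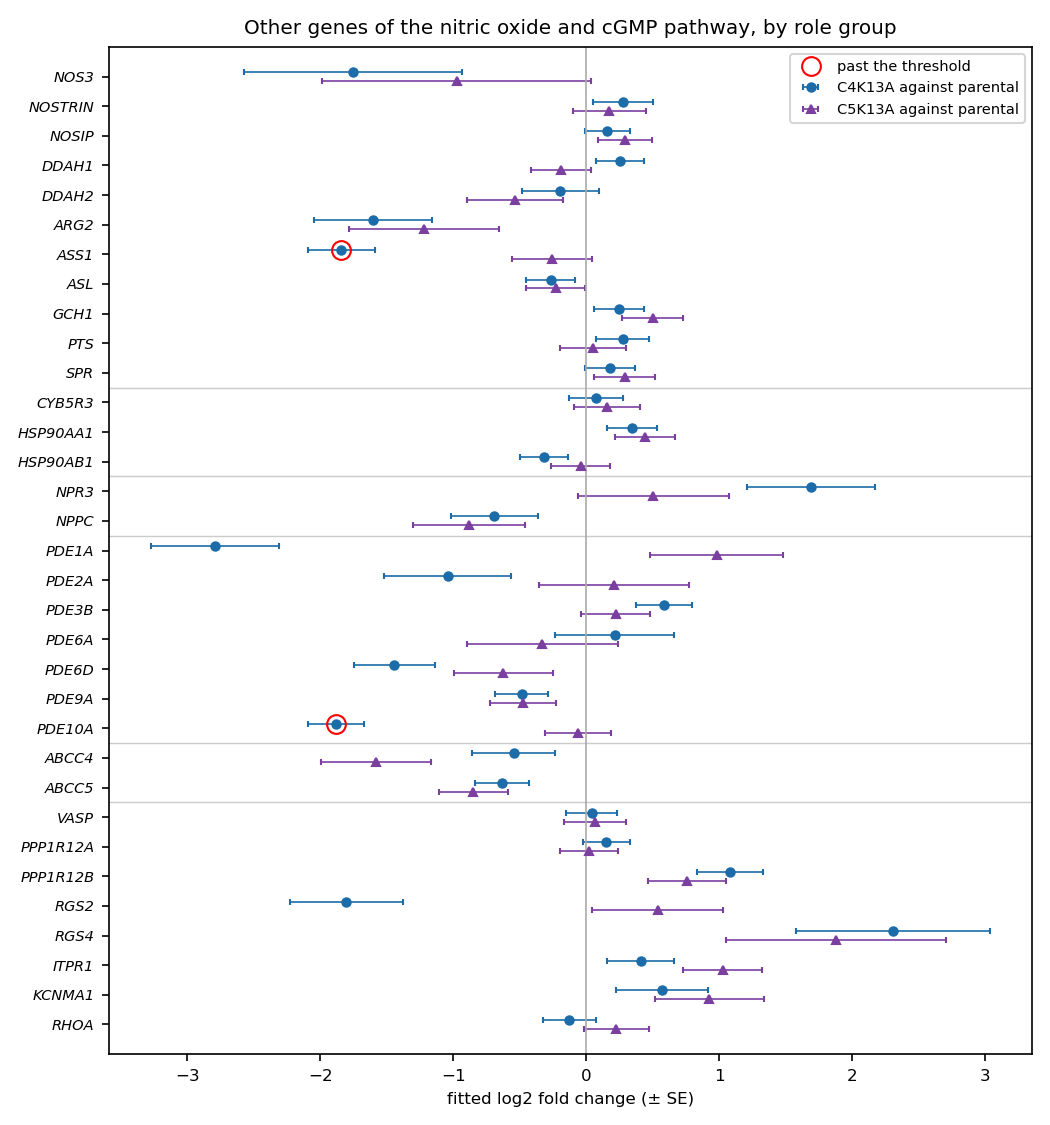
Fitted log2 fold change with its standard error (horizontal axis) in C4K13A and in C5K13A, each against parental, for the 33 other pathway genes that averaged at least 1 CPM, in role groups separated by lines. Red rings mark ASS1 (-1.84) and PDE10A (-1.88) in C4K13A, which passed the test.

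By distance between centred log2 CPM profiles over the 5 libraries, the protein-coding genes nearest to GUCY1A1 were SLITRK6, FUT2, IL20RB, CPNE4 and SLC18B1. The first of them, SLITRK6, a neuronal transmembrane protein gene, lay at a distance of 0.10 (Pearson r = 0.999, a description over 5 libraries). It was far less abundant, with 0.380, 0.325 and 0.142 CPM in K13A libraries and 0.807 and 0.906 CPM in parental libraries. SLC18B1, a vesicular polyamine transporter gene, was the most abundant of these and had 3.42, 2.44 and 1.73 CPM in K13A libraries and 5.78 and 6.48 CPM in parental libraries (r = 0.988). The nearest to GUCY1B1 were CACNA1C, EPHX3, ZNF516, MAP3K15 and CHRNA7, at distances of 0.12 to 0.33, and those nearest to GUCY1A2 were FMNL2, HYPK, SRRM5, IL1A and DUSP5, at 0.25 to 0.41. None of these genes is on the chromosome of the member it resembles, and most were below 1 CPM, where the prior count of 2 narrows profiles. GUCY1B1 itself ranked 146 of 14458 in nearness to GUCY1A1 (distance 1.08, r = 0.893).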

How the data were processed

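The authors deposited whole-number read counts per Ensembl gene, not normalized. The submitters' processing notes name bcl2fastq, STAR 2.5, Subread and featureCounts 1.4.6-p5. The genome build, annotation, strand setting and handling of multi-mapped reads were not given in the sources used here. Symbols, positions and exon lengths came by ID from GENCODE v29 (55297 of 58812 IDs) and a gene name table (54836). Tests were edgeR quasi-likelihood tests after filterByExpr and TMM scaling, adjusted by Benjamini-Hochberg over all genes tested at a threshold of 0.05 (edgeR 4.0.16, R 4.3.3). A fit of all K13A against parental libraries left 3 residual degrees of freedom and a fit of 3 groups left 2, the single C5K13A library taking its spread from the other groups. A standard error is the log2 fold change over the square root of F. Intervals and floors of 3 counts express counting error alone, since reads were not collapsed to molecules. Members, pathway and marker lists and alternatives (RLE factors, no filter, DESeq2 1.42.0, a ribosomal RNA covariate, summed C4K13A libraries, a replicate block, each library left out) were chosen with earlier results of these data known. The text names all members, pathway genes that passed and the 2 most abundant per role group, neighbours within 500 kb and the 5 nearest profiles. Any other gene was named after its values were seen. Every pair of libraries differed beyond sampling noise (chi-square per gene at least 43.1), so none was treated as a duplicate. The 2 parental libraries were the most unlike pair (149.6), and parental library 2 was nearer to C5K13A (46.0). C4K13A library 2 was nearer to C5K13A (43.1) than to C4K13A library 1 (45.3). Part of the luminal marker list and 1 listed motif are not reported here.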

Additional observations from a re-analysis of the deposited data

Results flagged for a closer look

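For the clone comparisons, 5 members and 48 other pathway genes passed the filter on low counts. Of these, 4 genes lay on opposite sides of the parental range in the 2 clones. All 4 are outside the member set and are named here after their values were seen. The share of all genes with this arrangement was not computed, so the count is a description and no result is read from it. The calcium-dependent phosphodiesterase gene PDE1A had 0.280 and 0.325 CPM in the C4K13A libraries and 4.16 CPM in C5K13A, against 1.45 and 2.78 CPM in parental libraries, and C5K13A minus C4K13A was 3.77 ± 0.53 on the log2 scale (edgeR adjusted p = 0.0759). PDE2A, a cGMP-stimulated phosphodiesterase gene, had 0.799 and 2.09 CPM in the C4K13A libraries and 3.43 CPM in C5K13A, against 3.31 and 2.62 CPM in parental libraries (1.25 ± 0.56, adjusted p = 0.792). DDAH1 was above the parental range in C4K13A and below it in C5K13A (-0.44 ± 0.23, adjusted p = 0.840). The retinal cyclase gene GUCY2D had 0.0799 and 0.163 CPM in the C4K13A libraries and 0.213 CPM in C5K13A, against 0.202 and 0.197 CPM in parental libraries (0.81 ± 1.24, adjusted p = 0.998). None of the 4 differences passed the threshold in the edgeR fit reported, and PDE1A passed it in 6 of 8 alternatives: without a filter, with DESeq2, with the ribosomal RNA covariate, and without C4K13A library 2, parental library 1 or parental library 2.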

How the results depend on the processing

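Each fitted fold change of GUCY1A1 and GUCY1B1 kept its sign in all alternatives, from -1.77 to -1.18 and from -1.29 to -0.71 over all K13A libraries. That sign follows from the separation of the groups already given, and only the sizes add to it. Counts of called genes moved widely. They are given over all genes, with pathway genes in parentheses, for all K13A libraries, C4K13A and C5K13A against parental and then C5K13A against C4K13A. They were 42 (0), 159 (2), 11 (0) and 15 (0) in the fits reported. Without a filter they were 1167 (13), 1346 (11), 578 (6) and 423 (7), and with DESeq2 555 (3), 745 (7), 235 (1) and 182 (4). With the ribosomal RNA covariate they were 71 (0), 777 (9), 105 (0) and 92 (4). Summed C4K13A libraries gave 11 (0) over all K13A libraries. Leaving out 1 library gave 0 to 130 (0 to 2), 130 to 1667 (2 to 9), 41 to 668 (0 to 5) and 51 to 155 (2 to 4). The highest counts for C4K13A and C5K13A, 1667 and 668, came without parental library 2, and the lowest over all K13A libraries, 0, without parental library 1. The cause was not tested. A replicate block gave 885 (9) for C4K13A against parental. Deviations of same-numbered libraries from their group mean correlated with r = 0.154 over 22743 genes in 2 pairs. With 2 libraries per group the second pair mirrors the first and adds nothing. Replicate number also follows the ribosomal RNA split. Libraries 1 of C4K13A and parental had 63.3 and 28.0 CPM, and libraries 2 had 363 and 1764 CPM. For these libraries the replicate block and the ribosomal RNA covariate are the same split, and whether the numbers pair the samples was not settled. Levels of PDE5A, PRKG1 and PRKG2 are limited by depth, with at most 63 counts per library.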
